A study of Mus musculus with 15 samples.

Results

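Chemokines are small secreted proteins that draw leukocytes along a gradient, and their receptors are G protein-coupled receptors on the cells that respond. Transcripts of these genes were examined in tarsal joints of mice with collagen-induced arthritis (CIA), an autoimmune model of rheumatoid arthritis in which immunisation with type II collagen leads to swelling, bone erosion and new bone in the paws. Members were chosen by symbol alone: any Ccl, Cxcl, Ccr, Cxcr or Ackr gene with a number, and Cx3cl1, Cx3cr1, Xcl1 and Xcr1. Of 19938 genes on the array that a probe set named singly, 55 met the rule, 34 ligands and 21 receptors, each read from its probe set of highest mean over the arrays used. Another 6 symbols, of the Ccl21 and Ccl27 group, occurred only in probe sets shared with other genes and were not analysed.

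All joints came from male DBA/1JBom mice, with 1 joint of 1 animal on each array and none pooled. Arthritis was induced with chicken collagen type II in complete Freund's adjuvant and boosted with collagen in incomplete adjuvant. Joints had a clinical score of 3 and had been arthritic for 0 to 3 days (animals 16 and 18), 1 to 2 weeks (animals 33, 43 and 52) or 3 to 4 weeks (animals 29, 54 and 60). In the decline group (animals 10, 15 and 21) the score had been 3 for at least 2 weeks by one description and 3 by another. It had since dropped, by more than 1 in the methods and by at least 1 in the sample overview. The overview gives a score under 2 at sampling. The 3 controls were non-induced. The methods call the array controls non-immunised but elsewhere mention controls that received both adjuvants alone, so adjuvant treatment of these 3 animals is not settled. The sources used here give no age. The other joint of day 0 to 3, from animal 57, failed quality control per the labels and entered no comparison. Skin and visible muscle had been removed and the remaining tarsus, with bone, marrow, synovium and other soft tissue, was extracted whole. More RNA per cell and more cells of a type cannot be told apart in such tissue.

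By textbook knowledge, CXC ligands that carry a glutamate-leucine-arginine motif bind Cxcr2 and attract neutrophils, whereas Ccl2, Ccl7 and Ccl12 attract monocytes, chiefly through Ccr2. Ccl8 is listed with these monocyte attractants here. Inflamed synovium is known for both streams of cells. Other members guide T cells (Cxcl9, Cxcl10 and Cxcl11 through Cxcr3), eosinophils (Ccl11 and Ccl24 through Ccr3) or cells that reside in lymphoid tissue and marrow (Cxcl12, Cxcl13 and Ccl19), and the atypical receptors (Ackr) bind ligands without classical signalling.

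The arrays differed in ways that bear on these values. The spread of log2 values over all genes (SD) was 1.22 to 1.46 on control arrays and 1.48 to 1.65 on arthritic arrays, except for animal 10 at 1.28; control 2 was the narrowest of the 14. The defining markers of epidermis (6 keratinocyte genes) averaged 5.69 to 7.28 on the log2 scale in the 6 arthritic joints whose array names carried one letter code, those of weeks 0 to 2 and animal 54, and 10.6 to 11.6 in the 5 that carried another, animals 29 and 60 and the decline group. The meaning of the code is not stated. Controls ranged from 6.26 to 10.7 in the same list. Skeletal muscle markers averaged 9.68 and 9.74 at day 0 to 3 against 11.4 to 12.2 in controls, and 5 of 6 were lower there. The part of these tissue differences in the results below was not tested. Joint tissue markers (cartilage, bone and synovium) averaged 8.78 to 10.0 over all groups, so the labelled tissue carried its defining transcripts.

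The question of the design was how expression follows the duration of clinical arthritis. At day 0 to 3, 13 of the 55 members (23.6%) were higher than in control at an adjusted p under 0.05, beside 4.46% of all genes, and 2 (3.64%) were lower, beside 3.36% of all genes. Those that rose were Ccl2, Ccl3, Ccl8, Ccl9, Ccl12, Ccl20, Ccr2, Cxcl2, Cxcl3, Cxcl5, Cxcl12, Cxcl14 and Cxcl16. Those that fell were Ccl11 and Ccl24. The median log2 change of the members was 0.12 against -0.12 over all genes, a background that became -0.0074 when every array was given 1 median and SD. The test was limma's moderated fit of 5 group means with Benjamini-Hochberg adjustment over all 19938 genes. The day 0 to 3 group held 2 arrays, and leaving out either one left 1 member higher (Ccr2), while adding the array of animal 57 left 0.

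In week 1 to 2 the count was 5 higher (9.09%, against 5.41% of all genes), namely Ccl3, Ccl9, Ccl12, Ccr2 and Cxcl5, and 2 lower (against 4.64%), Ccl11 and Ccl24. Without animal 52 only Ccl12 remained higher. In week 3 to 4 Ccl12 was the 1 member called higher (1.82%, against 0.958% of all genes) and 0 were lower, against 0.592%. There, 13 of the 55 members had an unadjusted p under 0.05 in either direction, beside 4774 of all 19938 genes. An ANOVA of the groups compared gave 7 members, beside 2637 genes. In decline 0 members and 0% of all genes passed in either direction. An unadjusted p under 0.05 was found there for 7 members, beside 2400 genes (2 members and 915 genes by an ANOVA of the groups compared). In both of these phases the unadjusted shares of members were near those of all genes. All phases were set against the same 3 control arrays, so the 4 comparisons are not independent.

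**Figure D1:**
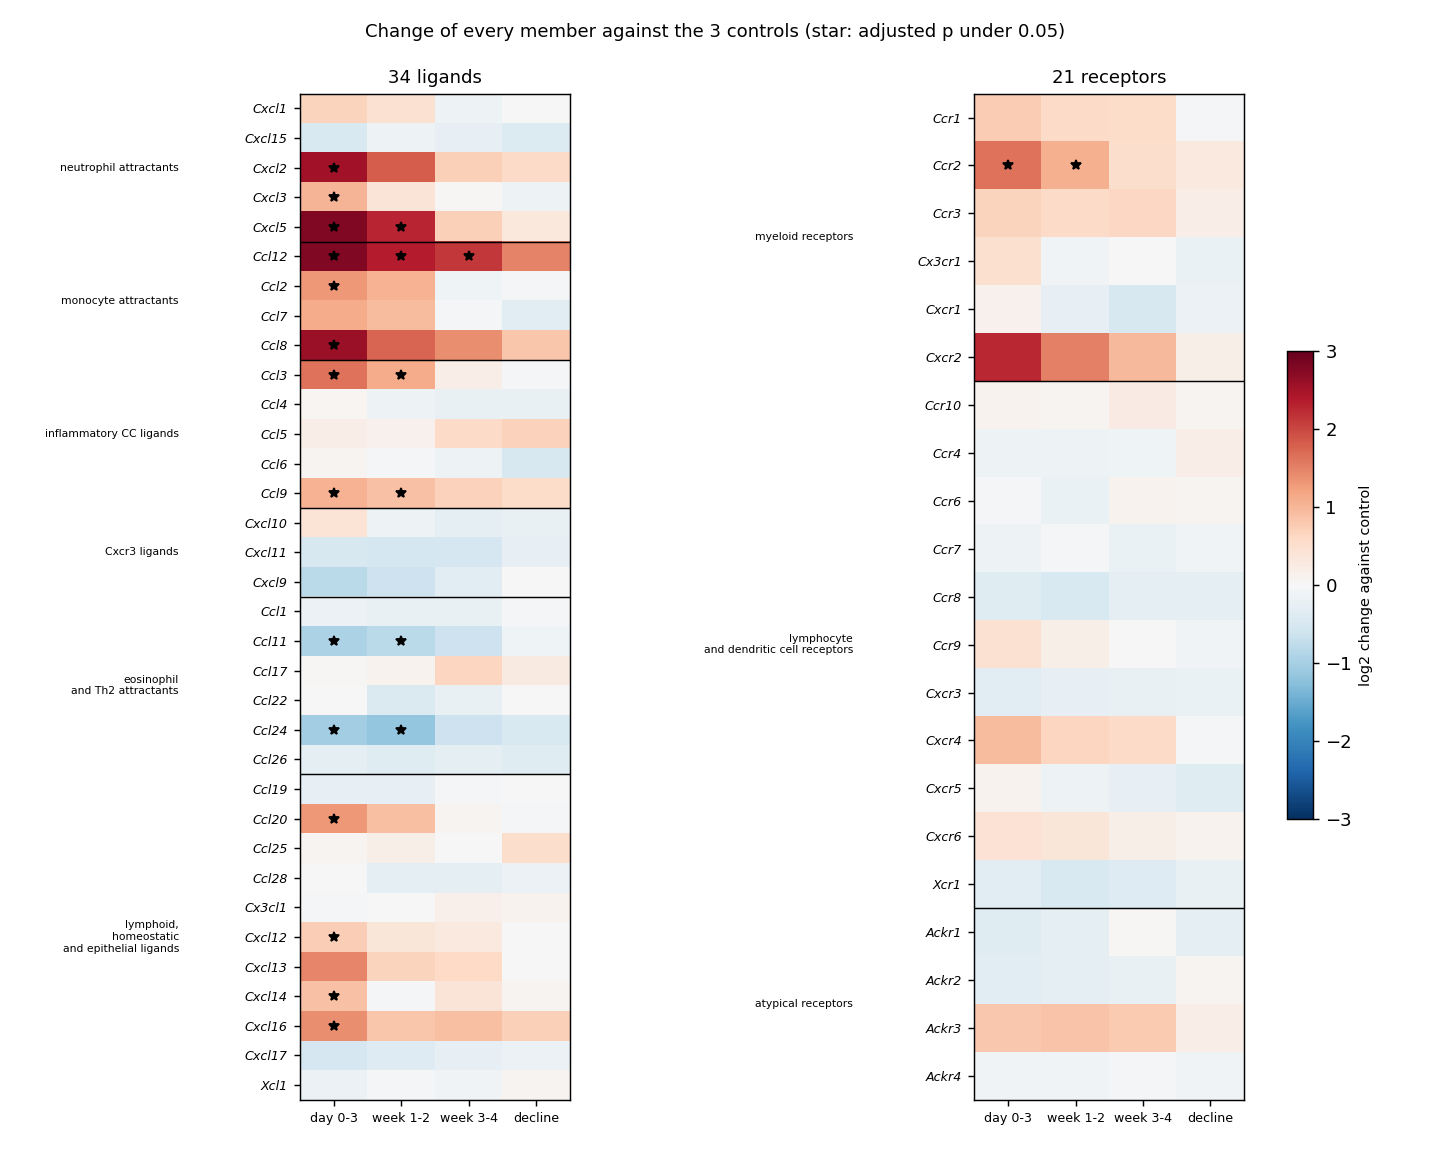
Log2 change of each of the 55 members (rows, grouped by role) against the 3 controls in each phase (columns), with red above and blue below control and a star where the adjusted p was under 0.05. The columns hold 15, 7, 1 and 0 stars in order of phase.

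The 5 neutrophil attractants did not move as a block. Cxcl2, Cxcl3 and Cxcl5 rose at day 0 to 3, Cxcl1 did not pass, and Cxcl15, a lung-associated ligand, had the opposite sign. On RefSeq's chromosome 5 of GRCm38.p6 these genes lie in 1 cluster in the order Cxcl5, Cxcl3, Cxcl15, Cxcl1 and Cxcl2, with the platelet chemokines Ppbp and Pf4 between the first pair.

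Cxcl5, made largely by stromal and epithelial cells, had log2 values of 4.93, 5.17 and 5.42 in controls and 8.15 and 7.74 at day 0 to 3. The joints of week 1 to 2 gave 6.14, 7.66 and 8.60 (animals 33, 43 and 52). All 5 joints of the first 2 weeks lay above every control. The log2 change was 2.78 ± 0.61 (SE), or 6.85-fold, at day 0 to 3 (adjusted p = 0.0164) and 2.30 ± 0.54, or 4.91-fold, in week 1 to 2 (adjusted p = 0.0203), the latter lost without animal 43 or 52 or control 2. At 3 to 4 weeks the values were 5.18, 5.45 and 7.05 for animals 29, 54 and 60, so that animal 60 alone stood above the controls by over 1 log2 unit, and the change of 0.72 did not pass (adjusted p = 0.404). In decline, values of 5.22, 5.26 and 5.96 in animals 10, 15 and 21 overlapped the controls.

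Cxcl2 had values of 6.63, 5.65 and 5.61 in controls against 8.96 and 8.004 at day 0 to 3. The change of 2.52 ± 0.61 (5.72-fold, adjusted p = 0.0262) was lost without control 2 or control 3. Later, animals 43 and 52 had 8.42 and 8.69 but animal 33 had 6.22, below control 1, and the change of 1.81 did not pass (adjusted p = 0.0514). Week 3 to 4 gave 5.99 to 7.04 and decline 6.09 to 6.83, both overlapping the controls.

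Cxcl3 rose from 6.63, 6.999 and 6.98 in controls to 7.68 and 8.11 at day 0 to 3, a change of 1.03 ± 0.23 (2.04-fold, adjusted p = 0.0192). The next values of 6.88, 7.35 and 7.54, of week 1 to 2, overlapped the controls (0.39, adjusted p = 0.224). Cxcl1 was 8.56 and 8.47 at day 0 to 3, above the controls at 7.95, 8.13 and 7.48, but its change of 0.66 ± 0.26 did not pass (adjusted p = 0.133). Cxcl15 lay between 3.28 and 4.35 on all 14 arrays, and its change of -0.46 at day 0 to 3 did not pass (adjusted p = 0.240).

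The receptor Cxcr2, through which neutrophils sense these ligands, had 8.63, 6.75 and 8.36 in controls and 10.2 and 10.1 at day 0 to 3. The groups did not overlap, and the change of 2.25 ± 0.67 lay just outside the threshold (adjusted p = 0.0549). At 1 to 2 weeks animals 43 and 52 were again at 10.2 and 10.1 and animal 33 was at 8.001, within the controls. Cxcr1, the other receptor of the pair, changed by 0.14 at day 0 to 3 with overlapping groups (adjusted p = 0.714).

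Of 12 markers of neutrophils themselves, 1 passed at day 0 to 3 and 0 in the later phases. Over the 12 genes the mean was 8.199 to 9.10 in controls, 8.45 to 8.75 at day 0 to 3 and 8.17 to 9.49 in week 1 to 2. It was 8.91 to 9.86 in week 3 to 4, where 11 of the 12 had positive changes (median of the 12, 0.48), and 8.04 to 9.38 in decline. Only Csf3r, the receptor of granulocyte colony-stimulating factor, passed at day 0 to 3 (1.62, adjusted p = 0.017), and the other 11 changed by -1.23 (the granule gene Ngp) to 0.42 (S100a9), 7 of them negative. Among these, Camp, Ltf, Elane and Mpo, granule genes also abundant in marrow, were negative, and the granule gene Mmp8 (0.30) and Retnlg (0.20) were positive. Ly6g, a defining surface marker of neutrophils, had 5.76 and 5.62 at day 0 to 3 beside 5.76, 4.42 and 5.67 in controls.

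**Figure D2:**
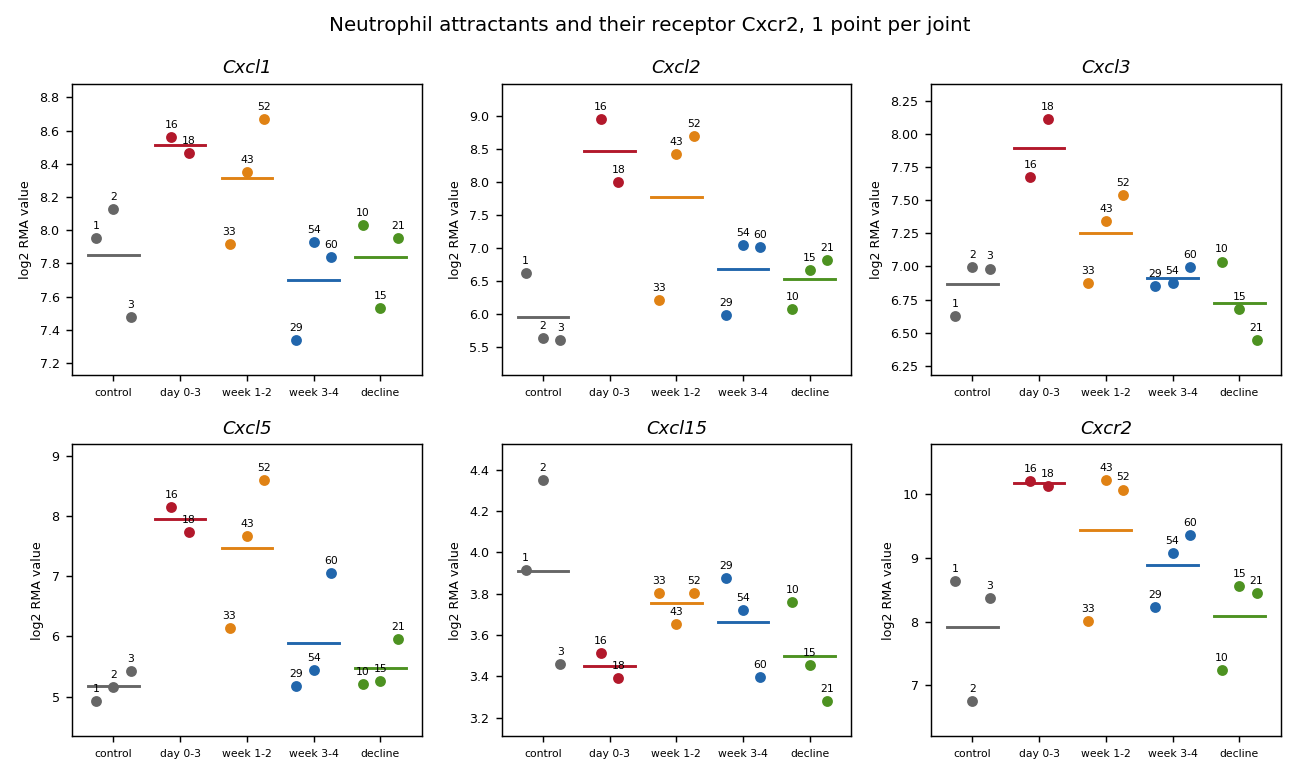
Log2 RMA value of the 5 neutrophil attractants and Cxcr2 in each joint (points, numbered by animal or control) with the group mean (line). Cxcl2, Cxcl3 and Cxcl5 at day 0 to 3 sit above all controls, and animal 33 lies below animals 43 and 52 for each of these genes except Cxcl15.

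Promoter letters are shown because 3 of the neutrophil attractants shared a match while 1 did not. RefSeq windows reaching 250 bases before the start (GRCm38.p6) were available for 41 members. They were searched on both strands for the NF-kB consensus, the site of a family of inflammatory transcription factors, and for the AP-1 site TGANTCA. The NF-kB consensus matched in 7.25% of 32851 windows of all genes and in 11 of the 41 members (26.8%), and the AP-1 site in 6.75% of windows and 4 members (9.76%). Shares over all genes count windows, while those of members count genes with a match in any window. They are therefore unlike measures. The run GGGAATTTCC, on either strand, lay in 0.0852% of all windows and in 4 members: Cxcl1 (71 bases before the start), Cxcl2 (97), Cxcl3 (73) and, on the other strand, Ccr3 (179). Cxcl15 held neither motif in its window. Ccl20 (80 bases before the start) and Ccl9 (35) held other NF-kB matches on the minus strand, and Ccl8, Ccl12, Ccr2 and Cxcr2 held none. The remaining members with an NF-kB match were Ackr2, Ccl1, Ccr1, Ccr6 and Cxcl10, which passed in no phase. No window was available for Cxcl5 or Ccl2. The 150 bases before the start follow, 5′ to 3′ along the gene, with the letters of NF-kB matches in capitals, a match on each strand overlapping in the first 3. A match is a description of the letters and not a site.
Cxcl1, chr5:90891095-90891244, plus strand: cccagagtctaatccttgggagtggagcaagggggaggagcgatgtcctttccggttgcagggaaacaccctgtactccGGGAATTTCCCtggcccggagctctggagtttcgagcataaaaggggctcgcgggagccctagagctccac
Cxcl2, chr5:90903749-90903898, plus strand: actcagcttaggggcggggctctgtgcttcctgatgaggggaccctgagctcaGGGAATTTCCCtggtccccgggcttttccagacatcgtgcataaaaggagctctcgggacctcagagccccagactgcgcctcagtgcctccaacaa
Cxcl3, chr5:90785951-90786100, plus strand: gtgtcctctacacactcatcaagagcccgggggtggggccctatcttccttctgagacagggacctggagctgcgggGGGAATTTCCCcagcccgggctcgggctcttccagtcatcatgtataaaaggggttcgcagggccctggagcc
Cxcl15, chr5:90794384-90794533, plus strand: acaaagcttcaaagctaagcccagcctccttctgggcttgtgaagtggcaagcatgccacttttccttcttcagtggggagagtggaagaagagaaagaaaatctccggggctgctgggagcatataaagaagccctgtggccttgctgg
Ccl20, chr1:83116616-83116765, plus strand: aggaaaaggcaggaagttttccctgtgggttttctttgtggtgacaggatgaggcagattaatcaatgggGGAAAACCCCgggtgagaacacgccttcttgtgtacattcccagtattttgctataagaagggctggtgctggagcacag
The windows of the monocyte attractants Ccl8 and Ccl12 held neither motif. A relation of the matches to the changes in the joints was not tested.
Ccl8, chr11:82115035-82115184, plus strand: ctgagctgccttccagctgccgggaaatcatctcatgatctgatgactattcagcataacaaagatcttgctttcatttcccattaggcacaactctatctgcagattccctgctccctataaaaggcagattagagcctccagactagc
Ccl12, chr11:82101695-82101844, plus strand: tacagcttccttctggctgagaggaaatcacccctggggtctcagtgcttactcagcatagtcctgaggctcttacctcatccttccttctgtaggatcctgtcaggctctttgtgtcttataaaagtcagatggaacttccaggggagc

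The monocyte attractants were led by Ccl12, the 1 member that passed in 3 phases. Ccl12 had 7.36, 5.69 and 6.95 in controls and 9.62 and 9.26 at day 0 to 3. The joints of week 1 to 2 gave 8.60, 9.25 and 9.22 (animals 33, 43 and 52), and those of week 3 to 4 gave 8.67, 8.38 and 9.33 (animals 29, 54 and 60). Every joint of these 3 phases lay above every control. Its log2 changes were 2.78 ± 0.50 (adjusted p = 0.00681), 2.36 ± 0.45 (adjusted p = 0.00832) and 2.13 ± 0.45 (adjusted p = 0.0400), or 6.85-, 5.12- and 4.37-fold. The week 3 to 4 call held in 3 of 14 omissions of a single array. In decline animals 15 and 21 were still at 8.18 and 9.03 and animal 10 was at 7.26, below control 1, and the change of 1.49 did not pass (adjusted p = 0.250).

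Ccl8 gave 9.60 and 8.50 at day 0 to 3 against 6.85, 5.29 and 7.28 in controls, a change of 2.58 ± 0.66 (5.99-fold, adjusted p = 0.0316) that was lost without control 2 (adjusted p from 0.014 to 0.296 over the single-array omissions). At 1 to 2 weeks (7.39, 8.53 and 8.73) and at 3 to 4 weeks (7.62, 7.66 and 8.35) every joint was above the controls, but the changes of 1.75 and 1.40 did not pass (adjusted p = 0.0719 and 0.179). Ccl2, the archetypal monocyte attractant, had 8.71 and 7.68 at day 0 to 3 beside 7.19, 6.85 and 6.63 in controls. Its change was 1.30 ± 0.37 (2.47-fold, adjusted p = 0.0449), a call that held in 5 of 14 omissions of a single array. Its week 1 to 2 values of 7.22, 8.195 and 8.37 were all above the controls (1.03, adjusted p = 0.0592), and by week 3 to 4 (6.26, 6.84 and 7.18) they were not. Ccl7 had 8.12 and 8.11 at day 0 to 3 against 6.36 to 7.51 in controls, a change of 1.11 ± 0.35 that did not pass (adjusted p = 0.0669). Ccl2, Ccl7, Ccl12 and Ccl8 are neighbours on chromosome 11, with Ccl11 among them, a gene that changed in the opposite direction.

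Ccr2, the receptor of Ccl2, Ccl7 and Ccl12 and a marker of classical monocytes, had the lowest adjusted p of the members at day 0 to 3. Controls had 7.02, 7.10 and 6.66, joints of day 0 to 3 had 8.65 and 8.49, and those of week 1 to 2 had 7.52, 7.94 and 8.50. The changes were 1.64 ± 0.24 (3.12-fold, adjusted p = 0.00211) and 1.06 ± 0.22 (2.08-fold, adjusted p = 0.0111), and the first held in 14 of 14 omissions of a single array and the second in 13, not without animal 52. Week 3 to 4 (7.25 to 7.60) and decline (7.19 to 7.29) also lay above every control, by 0.53 and 0.30, without passing (adjusted p = 0.171 and 0.597). Decline joints were above every control for 2 members, Ccl9 and Ccr2 (3.64%, against 3.8% of all genes).

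Markers of monocytes and macrophages were higher in the same joints. The mean of 8 markers was 7.43 to 8.34 in controls, 9.06 to 9.28 at day 0 to 3 and 8.62 to 9.04 in week 1 to 2. It was 8.43 to 8.98 in week 3 to 4, and decline joints had 7.71 to 8.70. At day 0 to 3, 4 of the 8 passed (Adgre1, Cd68, Fcgr1 and Ms4a7). Endothelium markers were higher there too: 3 of 5 passed (Cdh5, Kdr and Tek, median change of the 5 1.09), with means of 8.16 and 8.26 against 7.20 to 7.84 in controls, and 0 of 5 passed later. The part of either list in the rise of Ccr2 and its ligands was not tested.

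**Figure D3:**
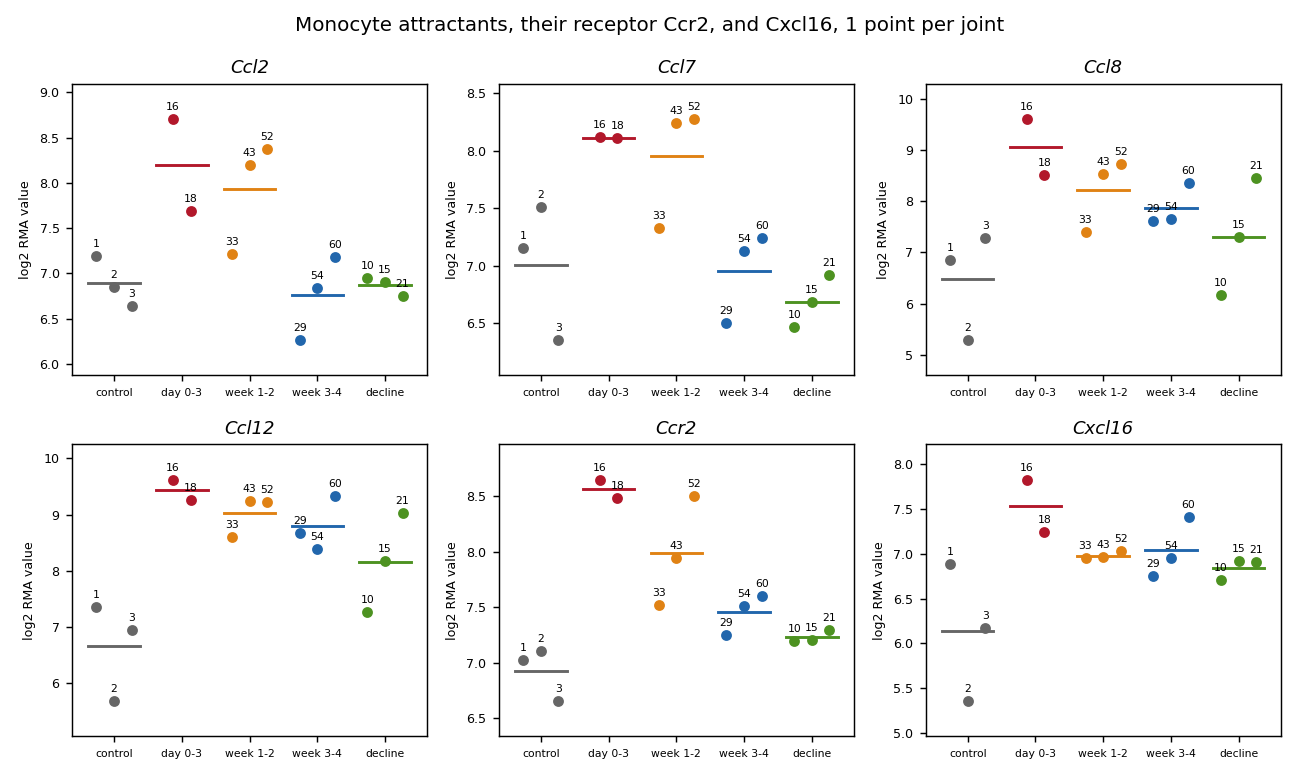
Log2 RMA value of the 4 monocyte attractants, Ccr2 and Cxcl16 in each joint (points, numbered by animal or control) with the group mean (line). Ccl12 is above every control in all 8 joints of the first 3 phases, and control 2 is the lowest array for Ccl8, Ccl12 and Cxcl16.

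Of 5 other inflammatory CC ligands, Ccl3 and Ccl9 rose and Ccl4, Ccl5 and Ccl6 did not pass in any phase. Ccl3, a macrophage inflammatory protein, had 5.82, 6.51 and 5.95 in controls, 7.65 and 7.79 at day 0 to 3, and then 6.64, 7.12 and 7.88, with no overlap in either phase. Its changes were 1.63 ± 0.37 (3.09-fold, adjusted p = 0.0191) and 1.12 ± 0.33 (2.17-fold, adjusted p = 0.0466), the second held in 6 of 14 omissions of a single array. Ccl9, abundant in myeloid cells and osteoclasts, went from 6.67, 6.44 and 6.33 to 7.59 and 7.43 and then to 7.21, 7.35 and 7.51. These were changes of 1.03 ± 0.25 (adjusted p = 0.0264) and 0.88 ± 0.23 (adjusted p = 0.0295), and both were lost without control 2 or control 3, the second also without animal 43 or 52. Its values of 6.672 to 7.60 in week 3 to 4 and 6.73 to 7.37 in decline still lay above every control. The lowest, of animal 29, was barely above control 1 at 6.665. The changes of 0.70 and 0.56 did not pass. Ccl4, the neighbour of Ccl3 on the chromosome, changed by 0.06 at day 0 to 3 (adjusted p = 0.887). Ccl5, a T cell product, was at 7.46 to 7.87 in controls and 8.22 to 8.32 in week 3 to 4, a change of 0.58 with no overlap that did not pass (adjusted p = 0.199). The receptor Ccr1 gave 6.84 and 6.44 at day 0 to 3, above the controls at 5.78 to 5.96, and its change of 0.77 did not pass (adjusted p = 0.154).

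None of the 3 ligands of Cxcr3, which interferon-gamma induces and which call activated T cells, passed in any phase by limma. At an unadjusted p under 0.05, Cxcl9 differed at day 0 to 3 and in week 1 to 2, towards lower values. Cxcl9 had 7.95, 7.91 and 7.77 in controls and 7.07 and 7.04 at day 0 to 3. The joints of week 1 to 2 gave 7.45, 7.16 and 7.17. The 5 joints lay below every control, with changes of -0.82 ± 0.25 (adjusted p = 0.0578) and -0.61 ± 0.22 (adjusted p = 0.0853). Cxcl11, annotated by RefSeq as a transcribed pseudogene in this assembly, changed by -0.49 and -0.53 without overlap (adjusted p = 0.278 and 0.170). Cxcl10 changed by 0.42 and -0.15 with overlap, the second turning to 0.16 without control 2. Ifng changed by -0.23 and -0.29 without passing, and Cxcr3 itself changed by -0.33 and -0.24 (adjusted p = 0.342 and 0.405). T cell markers averaged 6.19 to 6.58 on all 14 arrays, and 1 of the 6 passed at day 0 to 3. This was Cd3g, a chain of the T cell receptor complex, at 7.01 and 7.40 against 5.84, 6.25 and 5.22 in controls (1.44, adjusted p = 0.0445), and Cd3d and Cd3e of the same complex changed by -0.28 and -0.14 without passing.

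The eosinophil attractants Ccl11 and Ccl24, known as eotaxins, were the members that fell. Ccl24 had 7.40, 7.49 and 7.63 in controls and 6.48 and 6.44 at day 0 to 3. The joints of week 1 to 2 gave 6.25, 6.27 and 6.50. Its changes were -1.04 ± 0.18 (adjusted p = 0.00542) and -1.17 ± 0.16 (adjusted p = 0.00230), so that controls were 2.06 and 2.24 times as high, and the second call held in 14 of 14 omissions of a single array. Week 3 to 4 values of 6.69, 6.88 and 7.10 and decline values of 6.75, 7.14 and 7.24 were also below every control, without passing (-0.61, adjusted p = 0.0694, and -0.46, adjusted p = 0.312). Ccl11, a product of fibroblasts, had 10.2, 9.69 and 9.99 in controls and 9.20 and 8.80 at day 0 to 3, then 8.73, 9.49 and 9.22. The changes were -0.95 ± 0.25 (adjusted p = 0.0357) and -0.81 ± 0.23 (adjusted p = 0.0389), which held in 9 and 6 of 14 omissions of a single array. Both were lost without animal 16, 18 or 52, control 1 or control 3, and the second also without animal 29, 33 or 43. Of 7 fibroblast markers, 1 rose at day 0 to 3 (Lum) and 3 in week 1 to 2 (Lum, Col1a1 and Col1a2), with 0 lower, and their mean was 9.46 to 10.3 in controls and 10.5 to 10.6 at day 0 to 3. The other 4 of this list (Ccl1, Ccl17, Ccl22 and Ccl26) passed in no phase. The receptor Ccr3 had 7.04 and 6.74 at day 0 to 3, then 6.62, 6.90 and 6.86 at 1 to 2 weeks, all above the controls at 6.07 to 6.46, with changes of 0.67 and 0.57 that did not pass (adjusted p = 0.131 and 0.127).

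Among 11 measured ligands of lymphoid, homeostatic and epithelial origin, 4 rose at day 0 to 3 and 0 passed later, when Ccl20 and Cxcl16 had an unadjusted p under 0.05. Ccl20, which attracts Ccr6-bearing T cells and dendritic cells, had 5.62, 5.88 and 4.96 in controls and 6.76 and 6.81 at day 0 to 3, a change of 1.30 ± 0.31 (2.45-fold, adjusted p = 0.0257) that was lost without control 3. At 1 to 2 weeks animals 43 and 52 were at 6.74 and 6.73 and animal 33 at 5.73, inside the controls. Its receptor Ccr6 changed by -0.05 at day 0 to 3 (adjusted p = 0.889). Cxcl16, a transmembrane ligand of Cxcr6, had 6.89, 5.36 and 6.17 in controls and 7.83 and 7.25 at day 0 to 3, a change of 1.40 ± 0.34 (2.64-fold, adjusted p = 0.0258) that was lost without control 2 or control 3. All 3 joints of week 1 to 2, at 6.95 to 7.03, were above the controls, by little. Cxcl14, a ligand of stroma and epithelium, had 11.3 and 11.2 at day 0 to 3 beside 10.4, 10.5 and 10.2 in controls (0.88 ± 0.21, adjusted p = 0.0242, lost without control 3), and 9.99, 10.4 and 10.5 in week 1 to 2. Cxcl12, which retains cells in marrow through Cxcr4, had 9.64 and 9.57 beside 9.16, 8.70 and 8.74 (0.74 ± 0.20, adjusted p = 0.0417), a call that held in 4 of 14 omissions of a single array.

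Cxcl13, the B cell attractant of follicles and inflamed synovium, did not pass: values of 9.70 and 9.43 at day 0 to 3 exceeded controls at 7.84 to 8.52, a change of 1.46 ± 0.58 (adjusted p = 0.131). The highest value of all was in animal 60 of week 3 to 4 (10.2), whose group mates 29 and 54 were at 7.86 and 8.07. Its receptor Cxcr5 changed by 0.10 (adjusted p = 0.771), and B cell markers averaged 5.98 to 6.49 over the 14 arrays.

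Of the 21 receptors, Ccr2 alone passed against control in any phase, which makes 4.76% higher at day 0 to 3 and again in week 1 to 2, near the 4.46% and 5.41% of all genes. Cxcr4 came close, with 9.40 and 9.12 at day 0 to 3, then 8.74, 8.89 and 9.20 at 1 to 2 weeks, all above the controls at 8.13 to 8.58 (0.96, adjusted p = 0.0558, and 0.65, adjusted p = 0.113). The atypical receptor Ackr3, which binds Cxcl12 and removes it, was at 7.67 to 7.92 in the 5 joints of the first 2 weeks and 6.60 to 7.30 in controls (0.80, adjusted p = 0.122, and 0.86, adjusted p = 0.0616). Those 5 joints lay above every control for 12 members (21.8%, against 11.9% of all genes): Ackr3, Ccl2, Ccl3, Ccl8, Ccl9, Ccl12, Ccr2, Ccr3, Cxcl5, Cxcl16, Cxcr4 and Cxcr6. They lay below every control for 4 (7.27%, against 18.8% of all genes), namely Ccl11, Ccl24, Cxcl9 and Cxcl11. The 11 receptors of lymphocytes and dendritic cells had a median change of -0.05 at day 0 to 3, beside -0.12 over all genes, and 0 passed in any phase (Cxcr4 and Cxcr6 had an unadjusted p under 0.05 at day 0 to 3, Cxcr4 alone later).

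The course over time was first tested between neighbouring phases. By limma 0 members passed from day 0 to 3 on to the next phase (0.00502% of all genes passed), from there to week 3 to 4 (0.00502%) or between decline and week 3 to 4 (0%). At an unadjusted p under 0.05 the counts were 5, 9 and 3 members, and an ANOVA of the groups compared gave 0 adjusted and 4, 2 and 0 unadjusted. Of the 55 members, 41 (74.5%) had a lower mean in week 1 to 2 than at day 0 to 3, beside 55.1% of all genes. Cxcl14 had the lowest p of these (-0.91, adjusted p = 0.506). Animal 33 was the lowest of the 5 joints of the first 2 weeks for 28 members (50.9%, against 25.9% of all genes), and for all 13 that rose at day 0 to 3. Those 13 were picked for high values at day 0 to 3, so their lowest joint was likely to lie in week 1 to 2. Within that phase, animals 43 and 52 were the lowest for 0 of the 13. The share among all genes that rose at day 0 to 3 was not computed. Without animal 33, 10 members were higher in week 1 to 2 in place of 5. Without both animal 33 and control 2 the counts were 10 at day 0 to 3 and 7 in week 1 to 2. How many of all genes passed in these refits was not computed.

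Joints of 3 to 4 weeks were also set against the first 2 weeks, as the mean of both early phases. By limma 0 members passed (0.00502% of all genes) although 12 of the 55 had an unadjusted p under 0.05, with Ccl2 first. Of all 19938 genes, 1450 had an unadjusted p under 0.05. Ccl2 had 6.26, 6.84 and 7.18 in week 3 to 4 and 7.22 to 8.71 in the 5 early joints, a change of -1.30 ± 0.29 without overlap (adjusted p = 0.219). With array weights 8 members passed in this comparison, and the share of all genes passing with weights was not computed.

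In decline, 7 members were lower than in the first 2 weeks (12.7%, against 2.08% of all genes) and 1 was higher (1.82%, against 2.67%). The largest of the 7 was Cxcl5, at 5.22 to 5.96 in decline against 6.14 to 8.60 (-2.23 ± 0.49, adjusted p = 0.0228). Ccl3 changed by -1.40 ± 0.30 (adjusted p = 0.0200), from 6.64 to 7.88 in the early joints to 5.82, 6.04 and 6.34. Ccl7 changed by -1.34 ± 0.28 (adjusted p = 0.0189), with decline at 6.47 to 6.92 and the early joints at 7.33 to 8.27.

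These 3 ligands of myeloid cells were separated without overlap. Ccl2 (-1.19 ± 0.29), Ccl20 (-1.16 ± 0.25) and Ccr2 (-1.05 ± 0.19) were likewise lower in every decline joint than in every early joint, and Cxcl3 (-0.85 ± 0.19) overlapped through animal 10 at 7.04 and animal 33 at 6.88. The adjusted p-values of these 4 lay between 0.0122 and 0.0355. Ccl24 was higher, at 6.75 to 7.24 against 6.25 to 6.50 (0.64 ± 0.15, adjusted p = 0.0265). These members were picked by this test, and the share of all genes without overlap was not computed. Members that did not pass were separated too, such as Ackr3, Cxcl16 and Cxcr4 (lower in decline) and Ccl11 and Cxcl9 (higher).

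This contrast coincides with the letter code: all 5 early joints carry the first code and all 3 decline joints the second, and only animal 54 of week 3 to 4 separates code from phase. With the code as a term among the 11 arthritic joints, 0 of the 8 members and 0 of all genes passed, against 8 members and 1263 genes without it. The 6 epidermis markers were all higher in decline than in the first 2 weeks, by a median of 5.24 log2 units, and 3 of the 6 muscle markers were higher as well. Phase, code and skin content cannot be told apart for these 8 members.

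**Figure D4:**
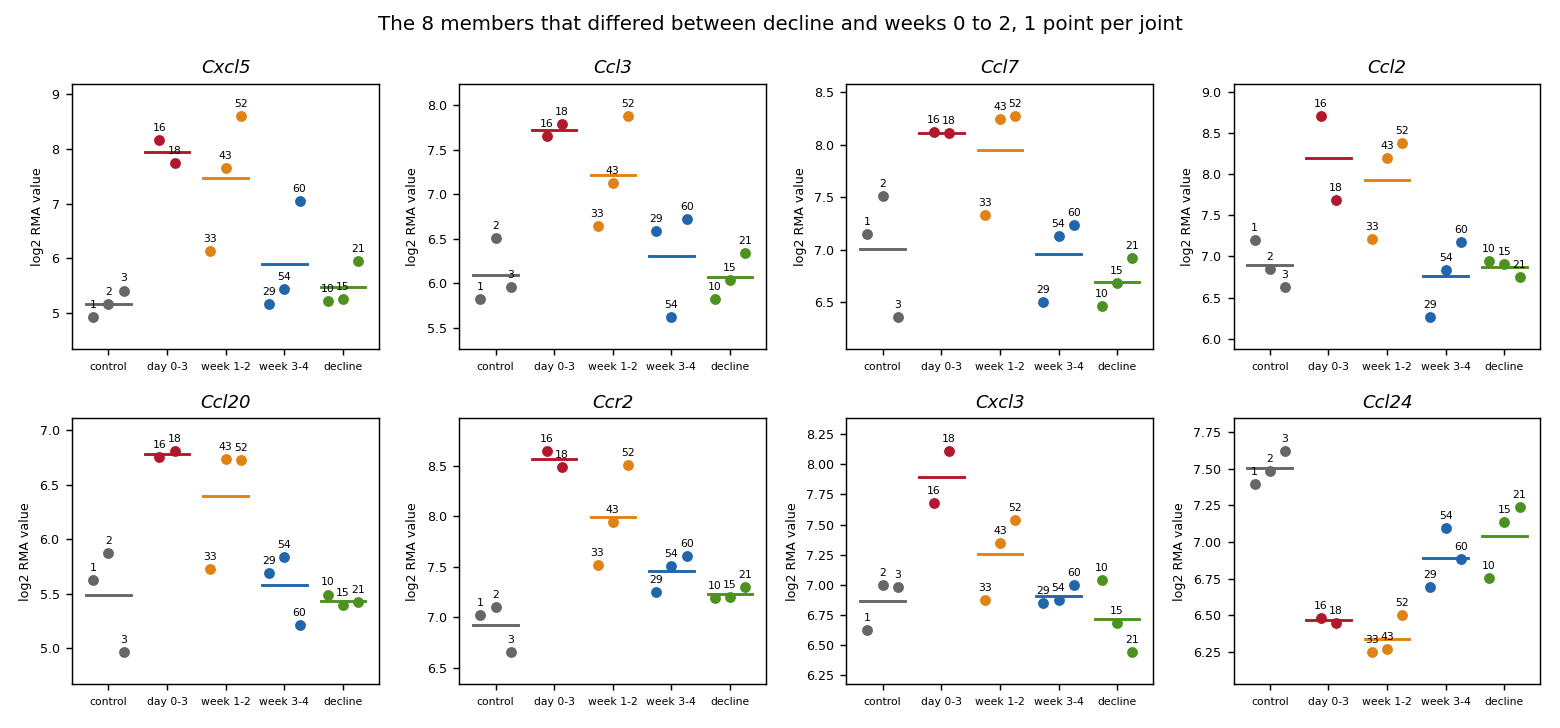
Log2 RMA value in each joint (points, numbered by animal or control; lines, group means) of the 8 members that differed between decline and the first 2 weeks, ordered by the log2 difference. For Cxcl5, Ccl3, Ccl7, Ccl2, Ccl20 and Ccr2 the 3 decline joints lie below all 5 early joints, and for Ccl24 above them. The share of all genes so separated was not computed.

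Of 25 measured genes that act with chemokines, 4 rose at day 0 to 3 (16%, against 4.46% of all genes), 3 in week 1 to 2 (12%, against 5.41%) and 1 in week 3 to 4 (4%, against 0.958%). None fell, against 3.36%, 4.64% and 0.592% of all genes. Rgs2, a brake on G protein signalling, passed in all 3 phases (1.85, 1.81 and 1.44). Gnai2, the inhibitory G protein through which chemokine receptors signal, rose by 1.35 at day 0 to 3 (adjusted p = 0.011), the kinase Fgr by 1.07 (adjusted p = 0.007) and the integrin subunit Itgam, of the adhesion receptor on neutrophils and macrophages, by 1.14 (adjusted p = 0.033). The platelet chemokines Ppbp and Pf4 changed by -0.23 and -0.05 at day 0 to 3 and did not pass.

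Among 17 measured inducers and brakes of chemokine transcripts, 2 rose at day 0 to 3 (11.8%, against 4.46% of all genes), and 4 rose (23.5%, against 5.41%) and 1 fell (5.88%, against 4.64%) in week 1 to 2. Il1b, which induces neutrophil attractants in stroma, rose by 2.30 at day 0 to 3 (adjusted p = 0.012) and by 1.94 in week 1 to 2 (adjusted p = 0.014). Its values were 8.94 and 8.96 at day 0 to 3, then 7.31 in animal 33 against 9.13 and 9.33 in animals 43 and 52, beside 6.31 to 6.92 in controls. Il6 showed the same low joint (5.81 against 8.43 and 8.49) and passed in week 1 to 2 (2.53, adjusted p = 0.034). Nfkbiz, an NF-kB cofactor, passed in both phases (0.75 and 0.80), and Zfp36, which destabilises such transcripts, in week 1 to 2 (0.74). Rela fell in week 1 to 2 (-0.51, adjusted p = 0.041). Tnf and Il17a changed by -0.11 and -0.21 at day 0 to 3 and did not pass.

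**Figure D5:**
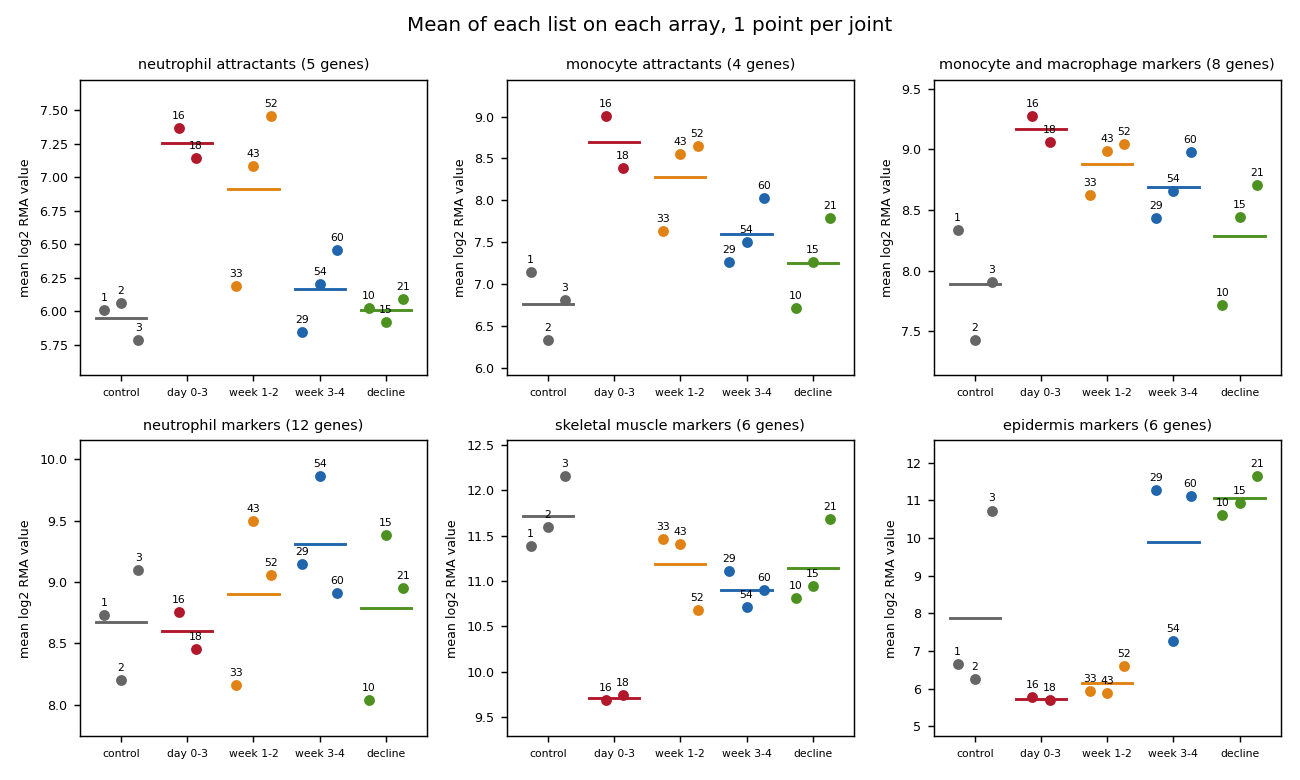
Mean log2 RMA value over 6 gene lists in each joint (points, numbered by animal or control; lines, group means). Attractants are highest at day 0 to 3 and in animals 43 and 52, muscle markers are lowest at day 0 to 3 (9.68 and 9.74), and epidermis markers exceed 10 in the decline joints, animals 29 and 60, and control 3.

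The array of animal 57, which failed quality control, lacked most of the day 0 to 3 rises. Of the 13 members that rose in animals 16 and 18, 10 were within or below the controls there, among them Cxcl5 (5.19), Cxcl2 (5.80), Ccl12 (6.03) and Ccl8 (5.23). The other 3, Ccl2 (7.52), Ccl9 (7.10) and Ccl20 (6.62), were above every control, and both members that fell, Ccl11 (9.06) and Ccl24 (7.04), were below every control. Over all members, 25 were above every control on the array of animal 57, 11 were below and 19 lay between. Values above the controls were thus not particular to the members that rose in animals 16 and 18. The share over all genes was not computed for the array of animal 57. Its SD over all genes was 1.08, the lowest of all 15 arrays, and it correlated with its group at a mean of 0.779.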

How the data were processed

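RNA of whole tarsal joints was amplified and hybridised to Affymetrix Mouse Gene 1.0 ST arrays, which read 1 colour. The deposited values are log2 intensities that the authors made by RMA (background correction and quantile normalisation; R version 2.15 and affy in the submitters' processing notes), 1 column per array, from 1.56 to 14.3. Scanner files were not used here, and RMA values keep no detection calls. Of 35556 probe sets, 21789 named 1 gene in the annotation given (21698 matched a RefSeq identifier), 1621 named several and 12146 had none listed. Among members, Ccl19 and Ccl25 had more than 1 probe set. Those of Ccl25 differed in sign (0.09 and -0.19 at day 0 to 3).

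Groups came from the labels, with 2 to 3 arrays each. The number of arrays limits the precision, and p-values measure the spread between single joints of separate animals. In R 4.3.3, limma 3.58.1 fitted 5 group means over 19938 genes, with Benjamini-Hochberg adjustment and a threshold of 0.05. A plain ANOVA of the groups compared (the methods name ANOVA, not the groups fitted), other scalings, filters, array sets and thresholds were run as alternatives. The fit was checked on simulated data. Members, gene lists and tests were chosen with earlier results of these data known, so no list is independent evidence. Genes were named where they belonged to the neutrophil, monocyte or Cxcr3 lists or their receptors, where they passed a test, or where they were among the 10 largest changes of the first phases. Others are named from lists or for their joint-level values, which were seen first.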

Additional observations from a re-analysis of the deposited data

Results flagged for a closer look

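The differences of 8 members between decline and the first 2 weeks of arthritis were picked out because a direct test between phases passed. The log2 differences, decline minus weeks 0 to 2, were -2.23 for Cxcl5, -1.40 for Ccl3, -1.34 for Ccl7, -1.19 for Ccl2, -1.16 for Ccl20, -1.05 for Ccr2, -0.85 for Cxcl3 and 0.64 for Ccl24. None of the 8 passed when the fit held the letter code as a term, or with animal 57 included. Over the 14 omissions of a single array the calls held in 7 (Ccl20) to 13 (Ccr2).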

How the results depend on the processing

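Of 31 calls of a member, 0 changed sign under any alternative that covered them. The 31 had passed on these same arrays, so a change of sign was unlikely from the start. The fit with the letter code covered 8 of the 31. Calls rested on few arrays: with all 15 arrays, 0 members were higher and 0 lower at day 0 to 3, 0 higher and 1 lower in week 1 to 2, 0 higher in week 3 to 4, and 0 differed between decline and weeks 0 to 2. A plain ANOVA of the 2 groups compared (the methods name ANOVA but not the groups it was fitted on) gave 0 in each of these counts. At an unadjusted p under 0.05 it gave 17, 13, 7 and 2 of the 55 members in the 4 phases. The same counts over all 19938 genes were 2980, 4460, 2637 and 915. Only at day 0 to 3 was the share of members clearly above that of all genes. ANOVA over 5 groups without moderation gave 4 higher and 1 lower at day 0 to 3, 2 higher and 1 lower in week 1 to 2, and 0 both for week 3 to 4 and for decline against weeks 0 to 2. A limma fit of the groups compared alone gave 7 higher and 1 lower at day 0 to 3, 1 lower in week 1 to 2 and 0 in week 3 to 4. The cause of these losses was not tested.

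Leaving out single arrays gave 1 to 16 members higher and 0 to 3 lower at day 0 to 3. The ranges were 1 to 10 and 1 to 2 in week 1 to 2 and 0 to 2 and 0 to 1 in week 3 to 4. Decline had 0 to 1 higher against control, and 1 to 10 members differed between decline and weeks 0 to 2. The smallest day 0 to 3 count came from omitting animal 16 or 18, when the lone array is assumed to vary like the other groups, and control 3 (6) and control 2 (8) also lowered it, while omitting animal 10 (16) raised it. In week 1 to 2, omitting animal 33 or animal 10 gave 10 higher, animal 43 gave 2, animal 52 gave 1 and control 3 gave 3. Against weeks 0 to 2, decline gave 1 without animal 16, 2 without 18, 3 without 43, 5 without 52 or 15 and 4 without 21 or 10.

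With both arrays of narrowest range left out, 8 members were higher in week 1 to 2, and 2 higher and 1 lower in week 3 to 4. Array weights gave 9 higher in week 1 to 2, 1 changed from day 0 to 3 to week 1 to 2, 8 changed in week 3 to 4 against weeks 0 to 2 and 22 in decline against weeks 0 to 2. Trend and robust moderation, median centring and a fold of at least 2 each left 1 lower member at day 0 to 3 and again 1 in week 1 to 2, while a second quantile normalisation or 1 median and SD for every array gave 2 lower in week 3 to 4. A 2-fold change with an unadjusted p gave 1 lower at day 0 to 3, 8 higher and 1 lower in week 1 to 2, 2 higher in week 3 to 4, 1 higher in decline, 2 changed in week 3 to 4 against week 1 to 2 and 6 against weeks 0 to 2. With the letter code as a term, 0 differed between decline and weeks 0 to 2. Chosen after seeing the data, leaving out animal 33 and control 2 together gave 1 lower in week 1 to 2 and 0 higher in week 3 to 4. Among these alternatives, counts over all genes were computed only for the letter code fit and the plain ANOVA of the groups compared. The other counts of members have no such share beside them.

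Members that had not passed could turn. In week 1 to 2 Cxcl15 changed by -0.38 to 0.068 over the omissions of single arrays, 0.068 without both narrow arrays, 0.22 after quantile normalisation, 0.28 with 1 median and SD and 0.043 without animal 33 and control 2. Cxcl10 changed by -0.40 to 0.16 over the omissions, by 0.16 without both narrow arrays or without animal 33 and control 2 and by 0.055 with array weights. No paired analysis was possible because the groups share no replicate numbers.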
